A study of Saccharomyces cerevisiae W303 with 8 samples.

Results

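The 10 genes described here encode enzymes of Saccharomyces cerevisiae that remove superoxide and peroxides. They are the catalase genes CTT1 and CTA1, the superoxide dismutase genes SOD1 and SOD2, the glutathione peroxidase homologs GPX1 and GPX2, and the peroxiredoxin genes TSA1, TSA2, AHP1 and PRX1. They were chosen by name and found on the array through their systematic gene names. Each had 1 probe, so that 10 of 6256 probes and 10 of 6228 systematic names belong to them. All 10 were among the 6108 probes that were tested, and none was lost to the filter on dim probes.

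Superoxide dismutases turn superoxide into oxygen and hydrogen peroxide. Catalases, glutathione peroxidases and peroxiredoxins then break hydrogen peroxide or organic peroxides down, catalases without a reducing partner and peroxiredoxins at the expense of thioredoxin. In yeast the cytosolic catalase gene CTT1 is a classical target of Msn2 and Msn4, related transcription factors of the general stress response, and it is induced by osmotic stress. Several peroxiredoxin and thioredoxin genes are known instead as targets of Yap1, the main transcription factor of the peroxide response.

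RNA was measured on 2-colour Agilent arrays in 2 strains at 0, 10, 20 and 30 min after NaCl was added to 0.4 M. The cdc55 strain is labelled msn2msn4cdc55 and the control strain W303 msn2msn4. Both strains therefore lack chromosomal MSN2 and MSN4 by their labels, and both carry the plasmid pMsn2pMsn2DNES, whose name the labels do not explain. CDC55 encodes a regulatory B subunit of protein phosphatase 2A, and the title of the series names this phosphatase, Msn2, Msn4 and hyperosmolarity stress as its subject. The sample was labelled with Cy5 and RNA of the control strain without NaCl, used on every array, with Cy3. All values below are log2 ratios of Cy5 over Cy3 unless another scale is named, so a value above 0 is a level above that reference RNA.

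There was 1 array per strain and time and no dye swap, so single arrays have no replicate check. The probability values come from a limma model fitted to all 8 arrays, and the spread behind them is that of the strain difference among 10, 20 and 30 min, not a spread between cultures. The RNA came from whole cultures, where fewer responding cells and less RNA per cell cannot be told apart. In Cy5 the share of spots well above background ranged over the arrays between 93.1% and 98.6%. On the control array at 0 min, which holds RNA of one strain in both channels, log2 ratios had an SD of 0.15 over the tested probes. The probe of CDC55 read -0.51, -0.21, -0.44 and -0.54 over the 4 times in the cdc55 strain and 0.15, 0.17, 0.14 and 0.45 in the control strain, lower in the cdc55 strain at every time. Its Cy5 signal was nevertheless well above background, in at least 1 spot, on all 4 arrays labelled cdc55. Whether the transcript was fully lost was not tested, so cdc55 is used below as the name in the labels. The probe of MSN4 was well above background in Cy5 on all arrays, although the labels name its deletion. That of MSN2 was not well above background in Cy5 at 30 min in either strain, but was on the other arrays. Which part of each of these genes its probe covers was not analysed here.

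The scanner files attached to cdc55 at 0 min and control at 10 min held each other's values, as judged by the columns of the deposited value table, and so did those attached to cdc55 at 20 min and control at 30 min. They were exchanged back. CTT1 shows what depends on it. With the files as attached CTT1 would read 7.05 in the cdc55 strain at 0 min, without NaCl, and 0.40 in the control strain at 10 min. CTT1 values from the 4 arrays whose file needed no exchange were 7.15 at 10 min and 5.77 at 30 min for cdc55, against 0.12 at 0 min and 7.08 at 20 min for control.

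**Figure D1:**
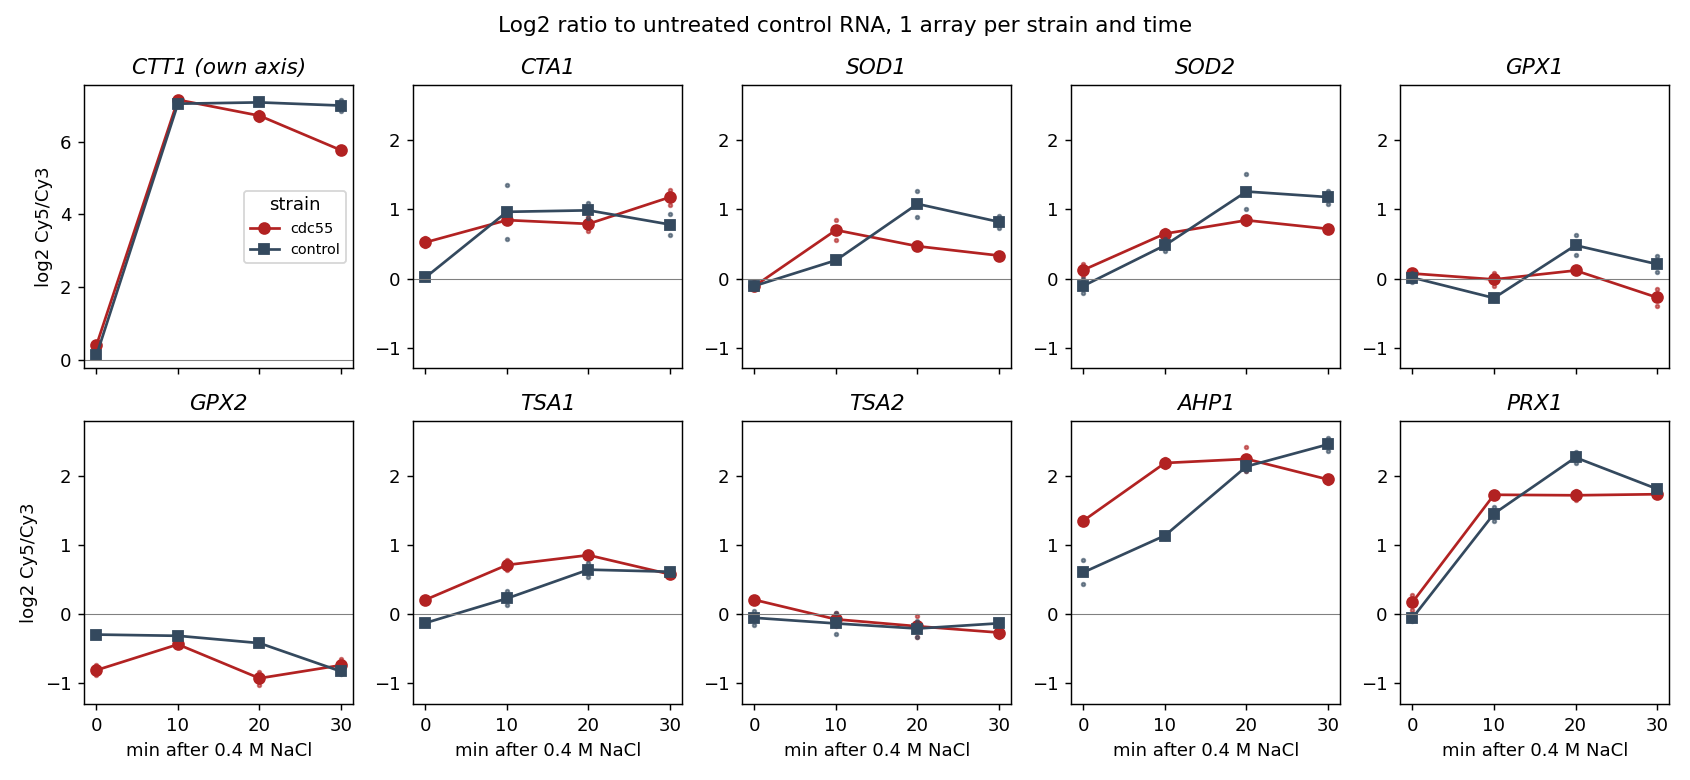
Log2 Cy5/Cy3 of the 10 genes (vertical axis) against minutes after 0.4 M NaCl (horizontal axis), with cdc55 as circles and control as squares. Lines join the single arrays, small dots are the 2 spots of each probe, and CTT1 has its own vertical axis because it reaches 7.15 while the other genes stay at or below 2.46.

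NaCl raised CTT1 far more than any other gene of the group in both strains, and PRX1 was the only other one that passed the test in both. Over 10 to 30 min against 0 min, 2 of the 10 genes rose in the cdc55 strain and 0 fell, and 3 rose in the control strain and 0 fell. At the same threshold, an adjusted p under 0.05, 2.88% of all tested probes rose and 1.31% fell with NaCl in cdc55, and 7.66% rose and 5.89% fell in control. The median change of the 10 genes was 0.56 in the cdc55 strain and 0.86 in the control strain, against 0.01 and 0.00 over all probes. With median centring in place of loess the medians were 0.34 and 0.51, and from the Cy5 signal alone 0.44 and 0.26. Of the 10 genes 8 had a positive estimate in each strain. GPX1 and TSA2 were the negative ones in the cdc55 strain, and GPX2 and TSA2 in the control strain. These shares describe genes chosen with earlier results known and are no evidence about the group as such.

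**Figure D2:**
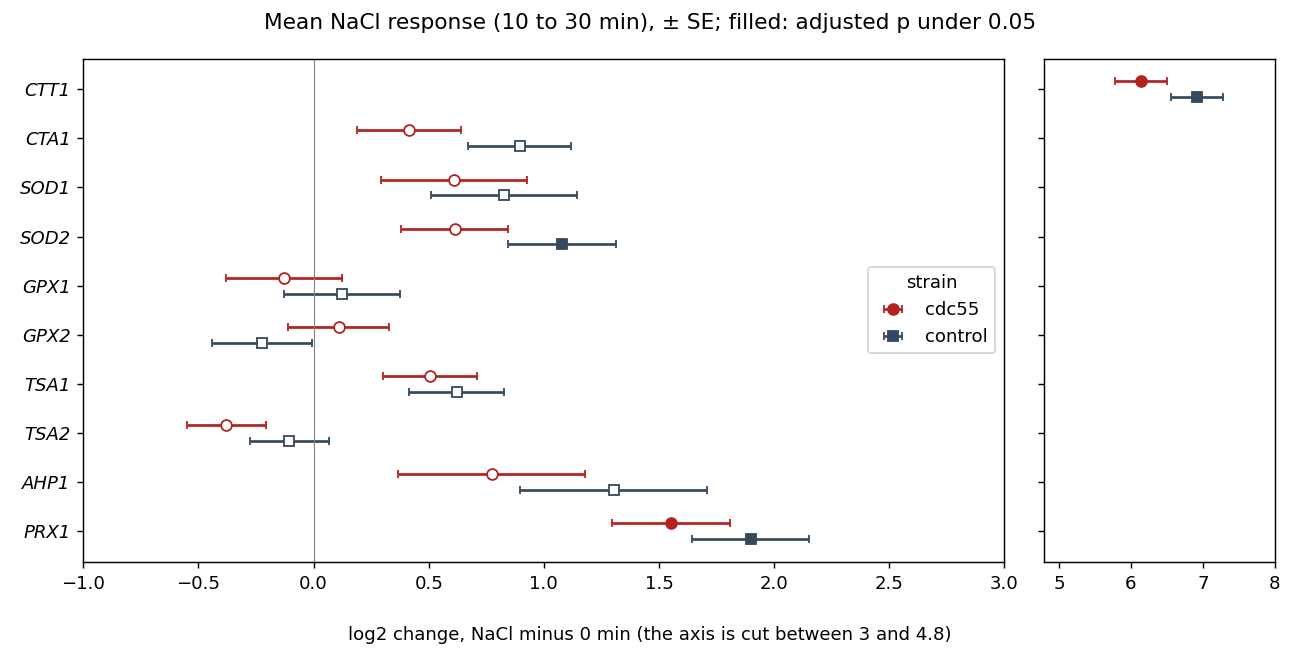
Mean change under NaCl over 10 to 30 min against 0 min (log2, horizontal axis, cut between 3 and 4.8) for each gene, with cdc55 as circles above control as squares; bars are the SE of the limma fit and filled symbols have an adjusted p under 0.05. CTT1 lies at 6.14 and 6.92, PRX1 at 1.55 and 1.90, and GPX1, GPX2 and TSA2 lie within 0.38 of 0.

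The catalase pair responded very unequally. CTT1, the cytosolic catalase gene, read 0.40, 7.15, 6.72 and 5.77 over the 4 times in the cdc55 strain and 0.12, 7.05, 7.08 and 7.00 in the control strain. It was near the reference without NaCl and close to its highest value at 10 min in both strains. After 10 min the cdc55 ratios stepped by -0.44 and -0.95 to the next times, while the control ratios stepped by 0.04 and -0.09. The Cy5 signal relative to the array median fell from 20 to 30 min in both strains. It went from 4.57 to 3.86 in cdc55 and from 5.28 to 4.59 in control. In control the Cy3 signal of the common reference also fell, from -1.84 to -2.54. The mean change was 6.14 ± 0.36 (SE), or 70.7-fold, in the cdc55 strain (limma, adjusted p = 0.00193) and 6.92 ± 0.36, or 121-fold, in the control strain (adjusted p = 0.000938). In the control strain this was rank 1 of 6108 probes by increase, and in the cdc55 strain rank 4.

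CTA1, the peroxisomal catalase gene, read 0.52, 0.85, 0.79 and 1.18 in the cdc55 strain and 0.02, 0.97, 0.99 and 0.78 in the control strain. Each array with NaCl lay above 0 min of its own strain. The change was 0.41 ± 0.22 in the cdc55 strain (limma, adjusted p = 0.298) and 0.89 ± 0.22 in the control strain (adjusted p = 0.0520), and neither passed. The control estimate passed under 7 other settings of the processing, with adjusted p between 0.0172 and 0.0439. The 2 spots of this probe differed by 0.78 on the control array at 10 min, where the median gap over all probes was 0.12.

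Of the superoxide dismutase genes SOD2 passed in the control strain. SOD2 encodes the mitochondrial manganese enzyme, and its values were 0.12, 0.65, 0.84 and 0.72 in the cdc55 strain and -0.11, 0.48, 1.26 and 1.18 in the control strain. The control values were higher at 20 and 30 min than at 10 min, whereas the cdc55 values with NaCl lay within 0.19 of each other. The estimate for SOD2 was 0.61 ± 0.23 in the cdc55 strain (limma, adjusted p = 0.168), and in the control strain it rose by 1.08 ± 0.23 (adjusted p = 0.0381). In fits that left out 20 min (adjusted p = 0.218) or 30 min (adjusted p = 0.0515) the control estimate no longer passed. The 2 spots of SOD2 differed by 0.50 on the control array at 20 min.

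SOD1, the gene of the cytosolic copper-zinc enzyme, read -0.11, 0.70, 0.47 and 0.33 in the cdc55 strain and -0.11, 0.26, 1.08 and 0.82 in the control strain. The highest cdc55 value came at 10 min and the highest control value at 20 min. With median centring in place of loess the control value was also highest at 10 min, 0.78 against 0.70 at 20 min. The 2 spots of SOD1 differed by 0.38 on the control array at 20 min. Neither change passed, with 0.61 ± 0.32 in the cdc55 strain (limma, adjusted p = 0.279) and 0.83 ± 0.32 in the control strain (adjusted p = 0.128).

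Among the peroxiredoxin genes PRX1, which encodes the mitochondrial enzyme, rose in both strains. It read 0.18, 1.73, 1.72 and 1.74 in the cdc55 strain and -0.05, 1.46, 2.27 and 1.81 in the control strain. The cdc55 values were level over the 3 times with NaCl, and the control values were highest at 20 min. The change was 1.55 ± 0.26, or 2.94-fold, in the cdc55 strain (limma, adjusted p = 0.0364) and 1.90 ± 0.26, or 3.73-fold, in the control strain (adjusted p = 0.0146). Without the 20 min arrays neither passed (adjusted p = 0.132 in cdc55 and 0.0897 in control), with estimates of 1.56 and 1.69.

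AHP1, an alkyl hydroperoxide-reducing peroxiredoxin of the cytosol, read 1.36, 2.19, 2.25 and 1.95 in the cdc55 strain and 0.61, 1.14, 2.14 and 2.46 in the control strain. The ratio was higher in the cdc55 strain than in control before NaCl and at 10 min, and lower at 30 min. The Cy5 signal alone, relative to the array median, did not follow this. It was 4.59, 5.51 and 5.24 in cdc55 at 0, 10 and 30 min, and 5.07, 5.48 and 5.03 in control. Neither change passed, with 0.77 ± 0.41 in the cdc55 strain (limma, adjusted p = 0.283) and 1.30 ± 0.41 in the control strain (adjusted p = 0.0807). The control value of 0.61 at 0 min comes from the array with RNA of one strain in both channels, and 99.9% of probes had a smaller ratio in size there. The 2 spots read 0.78 and 0.44 on that array, both above 0.

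TSA1 encodes the abundant cytosolic peroxiredoxin and TSA2 its less expressed paralog. TSA1 read 0.21, 0.71, 0.86 and 0.58 in the cdc55 strain and -0.12, 0.23, 0.65 and 0.62 in the control strain. TSA2 read 0.21, -0.07, -0.17 and -0.26 in the cdc55 strain and -0.05, -0.13, -0.21 and -0.13 in the control strain. The paralogs thus had estimates of opposite sign in each strain, positive for TSA1 and negative for TSA2. None passed: TSA1 had 0.51 ± 0.21 in the cdc55 strain (limma, adjusted p = 0.190) and 0.62 ± 0.21 in the control strain (adjusted p = 0.0910), and TSA2 had -0.38 ± 0.17 (adjusted p = 0.226) and -0.11 ± 0.17 (adjusted p = 0.706).

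The glutathione peroxidase homologs passed in neither strain. GPX1 read 0.07, -0.01, 0.12 and -0.27 in the cdc55 strain and 0.01, -0.28, 0.48 and 0.21 in the control strain. Its Cy5 signal was not well above background in the cdc55 strain at 30 min, so the value there is only a bound, and without the 30 min arrays its cdc55 estimate was -0.02. GPX2, a homolog that acts on peroxides through thioredoxin and is known as a Yap1 target, read -0.81, -0.43, -0.92 and -0.74 in the cdc55 strain and -0.29, -0.31, -0.42 and -0.83 in the control strain. All 8 values of GPX2 were below 0. The control array at 0 min was among them, although it holds RNA of one strain in both channels. There 94.9% of probes had a smaller ratio in size, so the sign for GPX2 is no sure sign of a level below the reference. The estimates with NaCl did not pass for GPX1 (limma, -0.13 ± 0.25 in cdc55 and 0.12 ± 0.25 in control) or for GPX2 (0.11 ± 0.22 in cdc55 and -0.22 ± 0.22 in control), with adjusted p between 0.504 and 0.788.

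The comparison between strains asks whether these levels under NaCl differed in the strain labelled msn2msn4cdc55, and none of the 10 genes passed it. Of all probes 2.21% passed for cdc55 minus control over 10 to 30 min. The median of the 10 genes was -0.15, against 0.01 over all probes. The estimate furthest from 0 was that of CTT1, -0.50 ± 0.26 (limma, adjusted p = 0.286), with a 95% interval of -1.12 to 0.13. The intervals of the other genes all held 0 as well, that of SOD2 from -0.64 to 0.17 and that of PRX1 from -0.56 to 0.33. Such an interval leaves room for a real difference in either direction.

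For CTT1 the strain difference varied between the times. Cdc55 minus control was 0.28, 0.11, -0.37 and -1.23 at 0, 10, 20 and 30 min, so the strains were close at 10 min and the cdc55 array lay lowest relative to control at 30 min. Without the 10 min arrays the difference was -0.80 and passed (limma, adjusted p = 0.0255), in a fit where 1012 of 6108 probes passed, against 135 with all times. Without the 30 min arrays it was -0.13 and did not pass (adjusted p = 0.722). The difference at 30 min was -1.20 with median centring in place of loess, which uses the same Cy3 signal. Relative to the array median, Cy5 at 20 and 30 min was 4.57 and 3.86 in cdc55, and 5.28 and 4.59 in control. The Cy3 signal of the common reference was -2.26 and -2.09 in cdc55, and -1.84 and -2.54 in control. In Cy5 the strains were thus about as far apart at 20 min as at 30 min. For the group as a whole, 8 of 10 genes were higher in cdc55 than in control at 0 min, 8 of 10 at 10 min, 3 of 10 at 20 min and 2 of 10 at 30 min. Over all probes the shares higher in cdc55 were 50.6%, 49.0%, 53.9% and 45.8% at these times. The median difference of the 10 genes was 0.25, 0.22, -0.36 and -0.30. With median centring it was 0.27, 0.13, -0.21 and -0.078, with 7, 9, 2 and 3 of the 10 genes higher in cdc55. At 10 min the arrays of the strains also differed in the type of scanner file, described below. Strain and file type cannot be told apart at that time.

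**Figure D3:**
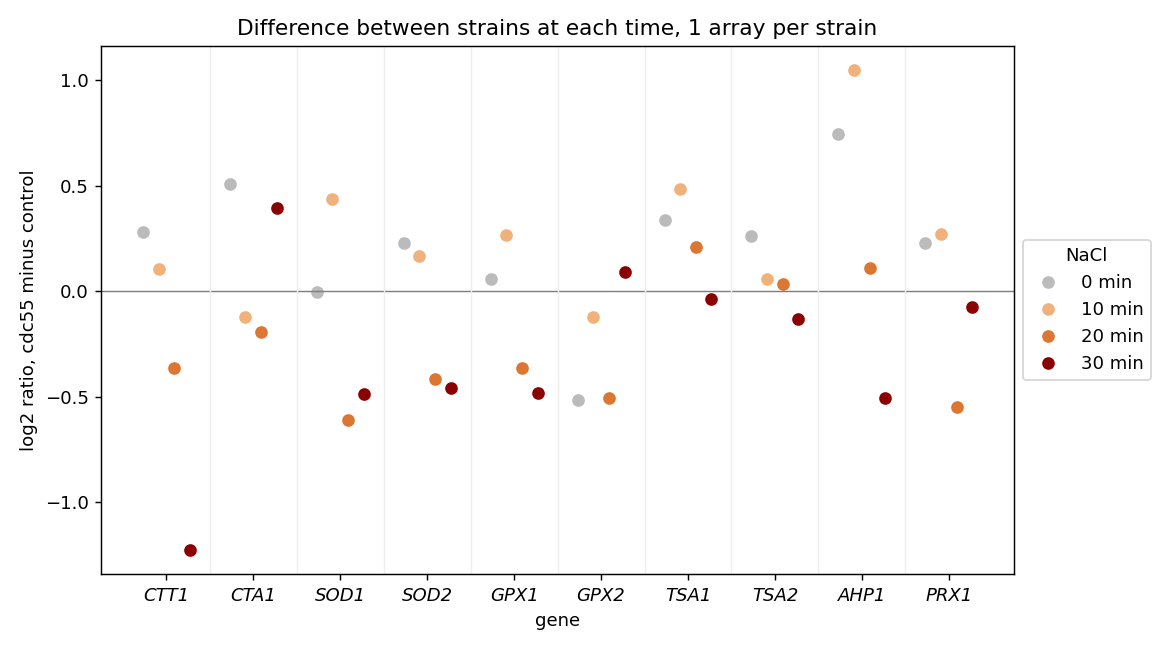
Log2 ratio of cdc55 minus control (vertical axis) for each gene at 0, 10, 20 and 30 min of NaCl, 1 array per strain, with darker points for later times. CTT1 at 30 min lies lowest at -1.23, AHP1 at 10 min lies highest at 1.05, and 8 of the 10 genes lie below 0 at 30 min.

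Before NaCl AHP1 and CTA1 had the largest differences upward, 0.75 and 0.51 higher in the cdc55 strain, and GPX2 was 0.51 lower there. These are differences between 2 arrays and were not tested. For AHP1 the Cy5 signal relative to the array median was lower in cdc55, 4.59 against 5.07 in control. Its Cy3 signal was 2.76 against 3.89, although the reference RNA was the same. The cdc55 response minus the control response was negative for 9 of the 10 genes, GPX2 being the exception, with a median of -0.31 against 0.02 over all probes. The number of negative genes was 7 with median centring and 5 from the Cy5 signal alone, where the median was -0.035. None of the 10 passed, and 0% of all probes did in limma, where 81 of 6108 had an unadjusted p under 0.05. CTT1 had -0.77 ± 0.51 with a 95% interval of -2.03 to 0.48.

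In the control strain the step from 10 to 20 min was upward for 8 of 10 genes, while 46.0% of all probes stepped up. It was 1.00 for AHP1, 0.81 for both SOD1 and PRX1, 0.78 for SOD2, 0.76 for GPX1 and 0.42 for TSA1. In the cdc55 strain the same step was upward for 4 of 10 genes, and it was 0.06 for AHP1, -0.23 for SOD1, -0.01 for PRX1 and 0.19 for SOD2. The type of scanner file, described below, also changed at this step in control, so step and file type cannot be told apart. The sizes changed with the normalisation. With median centring in place of loess the control step was 0.77 for PRX1 and 0.79 for GPX1, but 0.06 for AHP1, 0.25 for SOD2, -0.09 for SOD1 and -0.28 for TSA1. The cdc55 step moved too, being upward for 1 of 10 genes, with -0.39 for AHP1, -0.74 for SOD1, 0.14 for PRX1 and -0.024 for SOD2. Over the 10 genes the median step with loess was -0.03 in cdc55 and 0.59 in control, and with median centring it was -0.18 in cdc55 and 0.10 in control.

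AHP1, SOD1 and TSA1 are among the brightest probes of the array, at the 99.9, 99.1 and 97.5 percentiles of mean Cy5 signal. For these the reference channel itself varied more than for most probes, although it held the same RNA on every array. Relative to the array median, the Cy3 signal ranged over 1.13 log2 units for AHP1, 0.66 for SOD1 and 0.68 for TSA1 across the 8 arrays, against 0.30 for the median probe. For CTT1 the Cy3 range was 0.91, beside a Cy5 range of 6.83. For SOD2 and PRX1 the Cy3 ranges were 0.26 and 0.22, and no spot of the 10 probes was saturated.

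The estimated responses of these bright genes also differed between settings of the processing. For SOD1 the control response was 0.83 with loess, 0.15 with median centring and -0.15 from the Cy5 signal alone. For AHP1 it was 1.30, 0.70 and 0.33 in the same order, and for TSA1 0.62, 0.17 and 0.18. For SOD2, also bright at the 95.7 percentile, with a Cy3 range near that of the median probe, it was 1.08, 0.81 and 0.77. For CTT1, with a wide Cy3 range, it was 6.92, 6.99 and 6.47. PRX1 stayed between 1.82 and 1.90 under these settings. The part of the reference signal in the responses of AHP1, SOD1 and TSA1 was not tested.

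**Figure D4:**
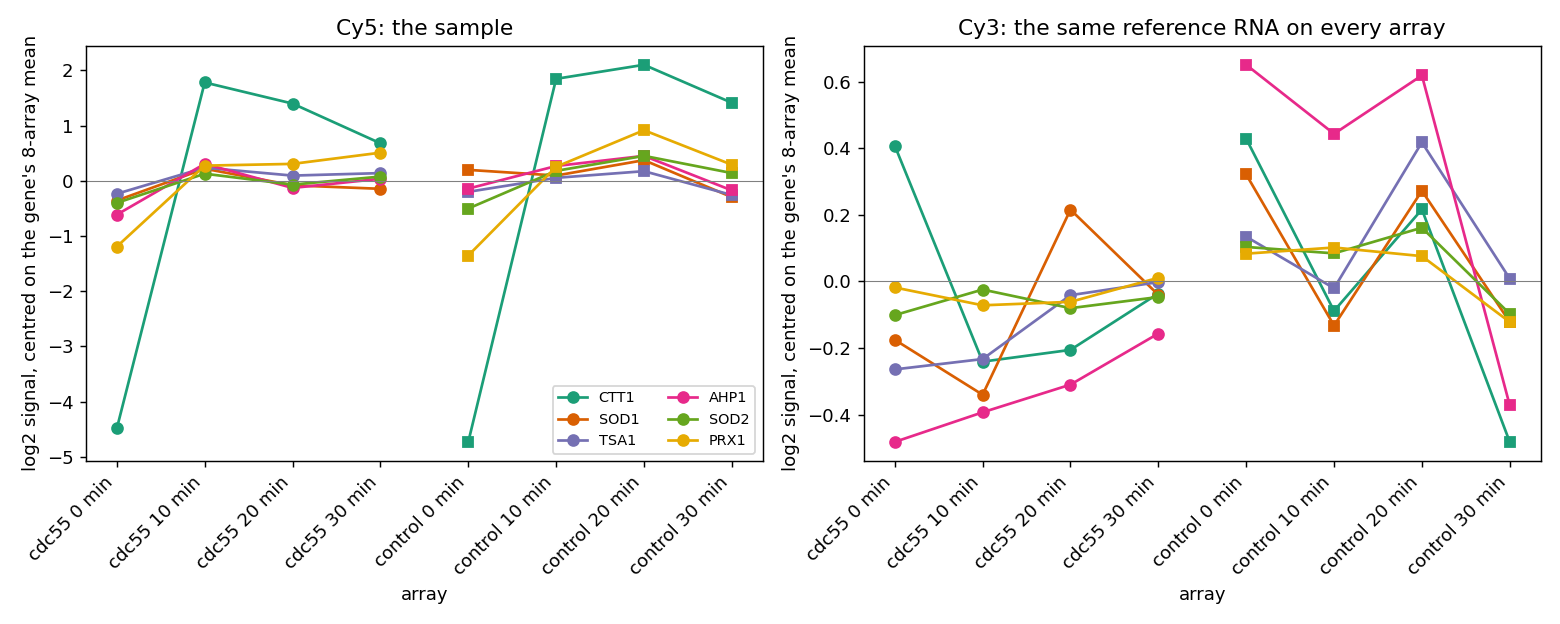
Signal of 6 genes relative to the array median (log2, vertical axis), centred on each gene's mean over the 8 arrays, in Cy5 (left) and in Cy3, the RNA common to all arrays (right; its axis is narrower), with cdc55 arrays as circles left of control arrays as squares. AHP1 varies over 1.13 log2 units in Cy3, while SOD2 and PRX1 vary over 0.26 and 0.22.

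Across the 8 arrays some genes of the group followed each other. CTT1 and PRX1 had a Pearson r of 0.957, TSA1 and AHP1 0.952, and SOD1 and SOD2 0.937, the 3 highest of the pairs. TSA2 ran the other way, with -0.750 against PRX1 and -0.716 against CTT1, the 2 lowest. These are descriptions over 8 arrays that share 1 reference RNA and that fall into 2 at 0 min and 6 with NaCl. The values of TSA2 spanned only 0.47 over the 8 arrays. Its 2 spots differed by 0.30 on the control array at 10 min and on the cdc55 array at 20 min. Among 2426 genes whose values spanned at least 1 log2 unit, those most like CTT1 were RTC3 (r = 0.993), LAM4 (0.992) and HXT5 (0.992), a hexose transporter gene. Those most like PRX1 were YDL124W (0.990), DCS1 (0.990) and RRD2 (0.986). For SOD2 they were UBC8 (0.992), RRT8 (0.986) and HAB1 (0.984), and for AHP1 they were PRE4 (0.977), a proteasome subunit gene, TRX2 (0.976) and PEX30 (0.974).

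The genes that work beside these enzymes were read from lists of 31 genes, also chosen with earlier results known. Of 7 further peroxidases and helpers none passed in any comparison. Their NaCl estimates were positive for 5 and negative for 2 in each strain, from -0.86 to 0.75 in cdc55 and from -0.71 to 0.69 in control. CCP1, the mitochondrial cytochrome c peroxidase gene, had estimates of 0.62 ± 0.20 in the cdc55 strain (limma, adjusted p = 0.131) and 0.69 ± 0.20 in the control strain (adjusted p = 0.0710). HYR1, which encodes the peroxide sensor that activates Yap1, had 0.35 ± 0.21 in the cdc55 strain and 0.40 ± 0.21 in the control strain. In the response of the cdc55 strain none of the 31 genes passed, where 2.88% of all probes rose and 1.31% fell.

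In the control strain 3 of the 31 rose and 0 fell, or 9.68%, close to the 7.66% of all probes that rose. GRX2, a glutaredoxin gene, read 0.02, 1.33, 1.09 and 0.48 in the cdc55 strain and -0.12, 1.31, 1.63 and 1.34 in the control strain, where it rose by 1.55 ± 0.27 (limma, adjusted p = 0.0244). In control YAP1 rose by 0.97 ± 0.22 (limma, adjusted p = 0.0417), and the cdc55 array at 0 min already stood at 0.56, against -0.21 for control. With NaCl YAP1 read 1.21, 1.32 and 0.93 in the cdc55 strain. Its estimate there, 0.60 ± 0.22, was positive too but did not pass (limma, adjusted p = 0.157). POT1, the peroxisomal thiolase gene of fatty acid beta-oxidation, read 0.29, 0.96, 1.39 and 0.43 in the cdc55 strain and -0.02, 1.08, 2.01 and 1.75 in control, where it rose by 1.63 ± 0.33 (limma, adjusted p = 0.0334). Without the 20 min arrays none of these 3 passed, with adjusted p of 0.158 for GRX2, 0.231 for YAP1 and 0.200 for POT1.

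Between the strains under NaCl 2 of the 31 were lower in cdc55 and 1 was higher, where 1.85% of all probes were lower and 0.36% higher. TRX1, a cytosolic thioredoxin gene, read -1.80, -1.59, -1.67 and -2.06 in the cdc55 strain and -0.16, 0.02, 0.03 and -0.33 in the control strain. The cdc55 array read lower than the control array at each time, 0 min included, with 1 array each. The difference under NaCl was -1.68 ± 0.12 (limma, adjusted p = 0.00493). TRX2, the other cytosolic thioredoxin gene, had a difference of 0.31 ± 0.18 that did not pass (adjusted p = 0.325). GRX1, a glutaredoxin gene, was lower by -0.91 ± 0.13 (adjusted p = 0.0358), and GTT2, a glutathione transferase gene, was higher by 0.85 ± 0.13 (adjusted p = 0.0401). Without the 20 min arrays 0 of 6108 probes passed this comparison in limma (678 had an unadjusted p under 0.05), these 3 included (adjusted p = 0.174 for TRX1, 0.333 for GRX1 and 0.351 for GTT2), with estimates of -1.67, -0.84 and 0.81. Without the 30 min arrays TRX1 passed (adjusted p = 0.0386), while GRX1 (0.122) and GTT2 (0.111) did not.

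**Figure D5:**
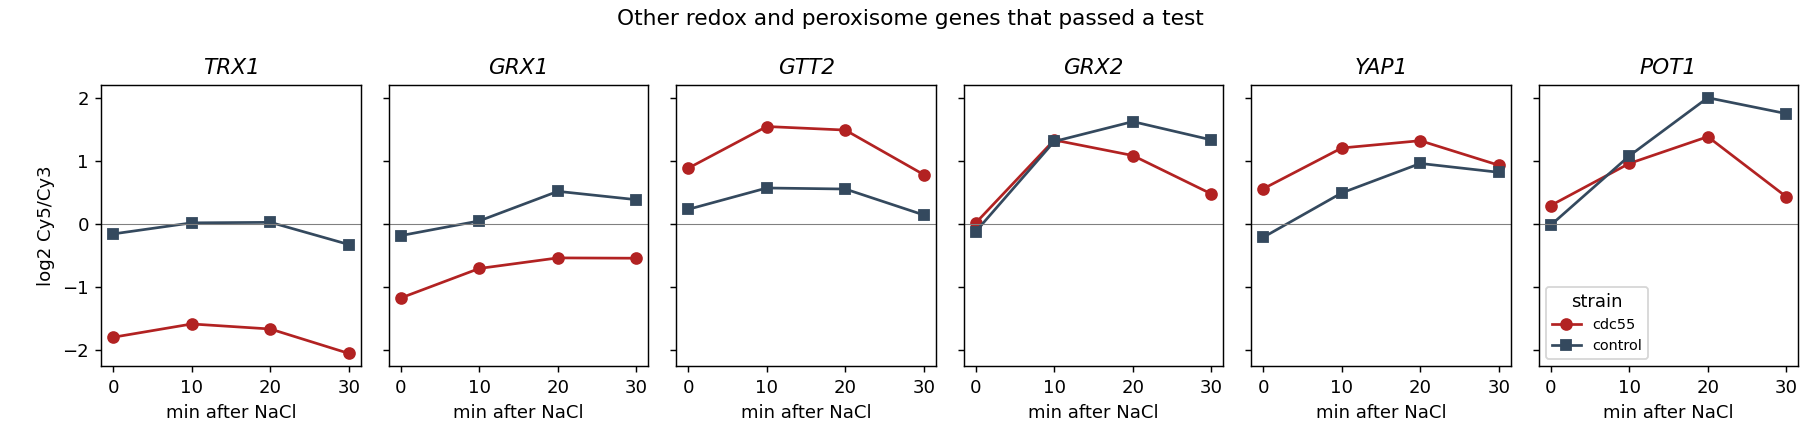
Log2 Cy5/Cy3 (vertical axis) against minutes of NaCl (horizontal axis) for 6 thioredoxin, glutathione, regulator and peroxisome genes that passed a test, with cdc55 as circles and control as squares, 1 array per point. TRX1 lies between -2.06 and -1.59 in cdc55 and between -0.33 and 0.03 in control at all 4 times.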

How the data were processed

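RNA of 2 yeast strains at 4 times was compared on 8 two-colour arrays, each a group of its own, grouped by the submitted labels. Per the file headers, the deposited scanner files give the intensity of each spot and of its local background for Cy5 and Cy3, with the software's log10 ratio of the channels. Flags of 0 or 1 in the same deposited files tell whether a spot is well above background, saturated or non-uniform. The version, Agilent Feature Extraction 10.5.1.1, stands in the headers of 5 files; 3 files, which by the assignment below are both 0 min arrays and control at 10 min, hold no settings block and rounded values, so file type cannot be told apart from the cdc55 response. The deposited value table holds log2 values whose scale, centring and direction the authors do not state. Set against the scanner ratios, 5646 of its 5742 complete rows (98.3%) equalled 1 probe within 0.01 in all 8 columns once 4 files were exchanged, and 2 did with the files as attached; its row names matched in 0 cases.

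Median signals were background-corrected (normexp, offset 50) and loess-normalised within arrays in R 4.3.3 with limma 3.58.1; control and non-uniform spots had weight 0. Each probe's value is the mean of its 2 spots. Among 6256 probes, 12 lacked a usable spot on some array and 136 failed a filter that asks for Cy5 well above background on at least 3 arrays, leaving 6108. The model had 6 terms (time, strain at 0 min, strain under NaCl), 2 residual and 3.93 prior degrees of freedom, and was tested on simulated data. P-values were adjusted by Benjamini-Hochberg over all probes. Names came from systematic names (5740 of 6228 in the RefSeq table), and 27 genes with several probes were represented by the brightest. No coordinates are printed, since the design's build differs from that table's, and no sequences were used here. Python 3.11.15, numpy 2.4.6, pandas 2.3.3, scipy 1.17.1 and matplotlib 3.10.9 were also used.

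The genes, lists and tests were chosen with earlier results of these data known. All 10 genes are named, then list genes that passed and up to 2 per list that did not, and the 3 genes most like each gene by Pearson r among open reading frames spanning at least 1 log2 unit; only those for CTT1, PRX1, SOD2 and AHP1 are printed. The number of arrays limits the precision.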

Additional observations from a re-analysis of the deposited data

How the results depend on the processing

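No paired analysis was possible because the labels give no replicate numbers, beyond the pairing of the strains by time that the model holds; the fit without it is the one with the NaCl times as repeats. Of 440 repeats over the 10 genes, 386 kept direction and side of the threshold. CTT1 passed in both strains under every setting except the files as attached, where its control response was 4.61 (adjusted p = 0.779) and 0 of the 10 genes passed in either strain. With those files the cdc55 responses were -0.41 for CTT1, -0.031 for CTA1, 0.26 for GPX1 and -0.35 for GPX2, the strain differences 1.91 for CTT1, 0.14 for SOD1, 0.11 for SOD2, 0.051 for GPX2, 0.37 for PRX1, 0.11 for GRX1 and -0.15 for GTT2, and the response difference of GPX1 0.046. The number of genes that rose in the control strain was 3, against 7 without the 10 min arrays, 1 without the 20 min arrays and 1 with the NaCl times as repeats. In the cdc55 strain it was 2, against 1 under each of the last pair of settings. The number lower in cdc55 than in control was 0, against 1 (CTT1) without the 10 min arrays. SOD2 also lost its control call with the scanner's ratio (adjusted p = 0.0609), with repeats (0.214) and with Cy5 alone (0.0631); PRX1 lost its calls with repeats (0.160 in cdc55 and 0.0559 in control). With repeats GRX1 (0.117) and GTT2 (0.281) also lost their strain difference, GTT2 also with the scanner's ratio (0.0521), while TRX1 kept it. Median centring turned the cdc55 response of GPX1 (0.080), the strain differences of CTA1 (-0.059) and SOD1 (0.050) and the response differences of SOD1 (0.11) and TSA1 (0.072). The Cy5 signal alone, chosen after seeing the data, turned the control response of SOD1 (-0.15), the cdc55 response of GPX1 (0.27), the strain differences of CTA1 (-0.018) and AHP1 (-0.095) and the response differences of SOD1 (0.51), GPX1 (0.17), TSA1 (0.22) and AHP1 (0.36). Leaving out 10 min turned the cdc55 response of GPX2 (-0.023) and the strain difference of AHP1 (-0.20); leaving out 20 min turned the control response of GPX1 (-0.050) and the strain difference of PRX1 (0.10); leaving out 30 min turned the strain differences of CTA1 (-0.16) and TSA2 (0.046) and the response difference of TSA1 (0.011). No value that turned had passed the test except those of CTT1, GRX1 and GTT2 with the files as attached, where CTT1's turned strain difference had not. The causes were not tested.

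Over all probes, in the cdc55 response 256 passed, against 13 without 20 min, 22 with repeats, 392 with Cy5 alone, 546 with median centring, 924 without 30 min and 961 without 10 min. In the control response 828 passed, against 33 without 20 min, 51 with repeats and 1750 without 10 min. For the strain difference under NaCl 135 passed, against 0 without 20 min (678 at an unadjusted p under 0.05), 29 without 30 min, 31 with repeats, 212 with an intensity trend in the prior variance, 306 with Cy5 alone, 403 with median centring and 1012 without 10 min. With the files as attached 0 passed in each of these, with 229, 304 and 18 at an unadjusted p under 0.05. Leaving out a time leaves 1 residual degree of freedom.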
